A study of Mus musculus with 6 samples.

Results

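The genes described here carry glucose from the bloodstream into lactate, pyruvate or glycogen: 35 genes for glucose transporters, the insulin receptor and its substrates, the enzymes of glycolysis and their regulators, lactate enzymes and transporters, and the enzymes of glycogen turnover. They were taken as a list of gene symbols, with no threshold on their counts but drawn up with earlier results of these data known, and all 35 were found among the 47069 genes of the count tables. RNA of the inguinal subcutaneous white adipose tissue (SC-WAT) was sequenced from 3 *Egr1*+/+ and 3 *Egr1*-/- mice, 1 library per mouse, and the question was which of these genes differed in level without *Egr1*, a zinc-finger transcription factor. All 6 mice were 2-week-old C57BL/6 females (C57BL/6 J in the study's methods) born to heterozygous parents. The *Egr1*-/- mice carried a *LacZ* insertion together with a frameshift before the DNA-binding domain in the germline, so that the loss was not restricted to fat. The mice came from several litters, and a single mouse of each genotype had a littermate in the other group. With 1 allele and 3 mice per genotype, p-values measure the spread between these mice.

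In white fat, glucose enters through the insulin-responsive transporter GLUT4 and the insulin-independent GLUT1, and is trapped inside the cell by hexokinase. Glycolysis then yields glycerol 3-phosphate for triglyceride and pyruvate for lactate or for mitochondrial oxidation, while a small part of the glucose is stored as glycogen. Beige and brown adipocytes, which burn fuel for heat through the uncoupling protein UCP1, take up large amounts of glucose when active.

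The libraries held 29661984 to 42357981 counts on genes, 50.0% to 66.3% of them mitochondrial, with the highest share in *Egr1*-/- replicate 1. Between 52389 and 74721 counts per mouse fell on the 35 glucose genes. Levels are given as CPM, the count of a gene scaled to a common library size, after TMM normalization for library size and composition. *Egr1* itself was at 10.3, 8.02 and 16.5 CPM in *Egr1*+/+ replicates 1 to 3 and at 3.09, 2.71 and 1.84 CPM in *Egr1*-/- replicates 1 to 3, and so followed the labels although some counts remained. Its log2 fold change was -2.19 ± 0.30 (SE, adjusted p = 0.0878 with edgeR's quasi-likelihood test, n = 3 and 3). That test was fitted to 17667 genes, of which 3 (0.017%) passed an adjusted p of 0.05.

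Most glucose genes had a higher mean level in *Egr1*-/- than in *Egr1*+/+ SC-WAT, and none passed the adjusted threshold with edgeR. The log2 fold change was positive in 29 of the 34 genes tested (85.3%), against 50.1% of all tested genes, and its median was 0.28 against 0.0011 over all tested genes. An unadjusted p under 0.05 was reached in the higher direction by 12 glucose genes (35.3%), against 5.06% of all tested genes, and in the lower direction by 0, against 5.6%. The lowest adjusted p among the 34 genes was 0.165. DESeq2, run on the same counts, gave adjusted p-values under 0.05 for *Hk2*, *Ldhb* and *Gys1*, all of them higher in *Egr1*-/- mice, where 1.02% of the genes it tested were called higher. All 3 *Egr1*-/- mice lay above all 3 *Egr1*+/+ mice in 7 of the 34 genes (20.6%), against 8.15% of all tested genes. They all lay below in 1 gene, *Ugp2* (2.94%), against 8.1%. Under total-count scaling, which lowered the median of all genes by 0.15 on the log2 scale, 22 of the 34 genes were positive, against 29.5% of all genes, and 3 had an unadjusted p under 0.05 in the higher direction, against 0.962%. These shares describe the list and were not tested.

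**Figure D1:**
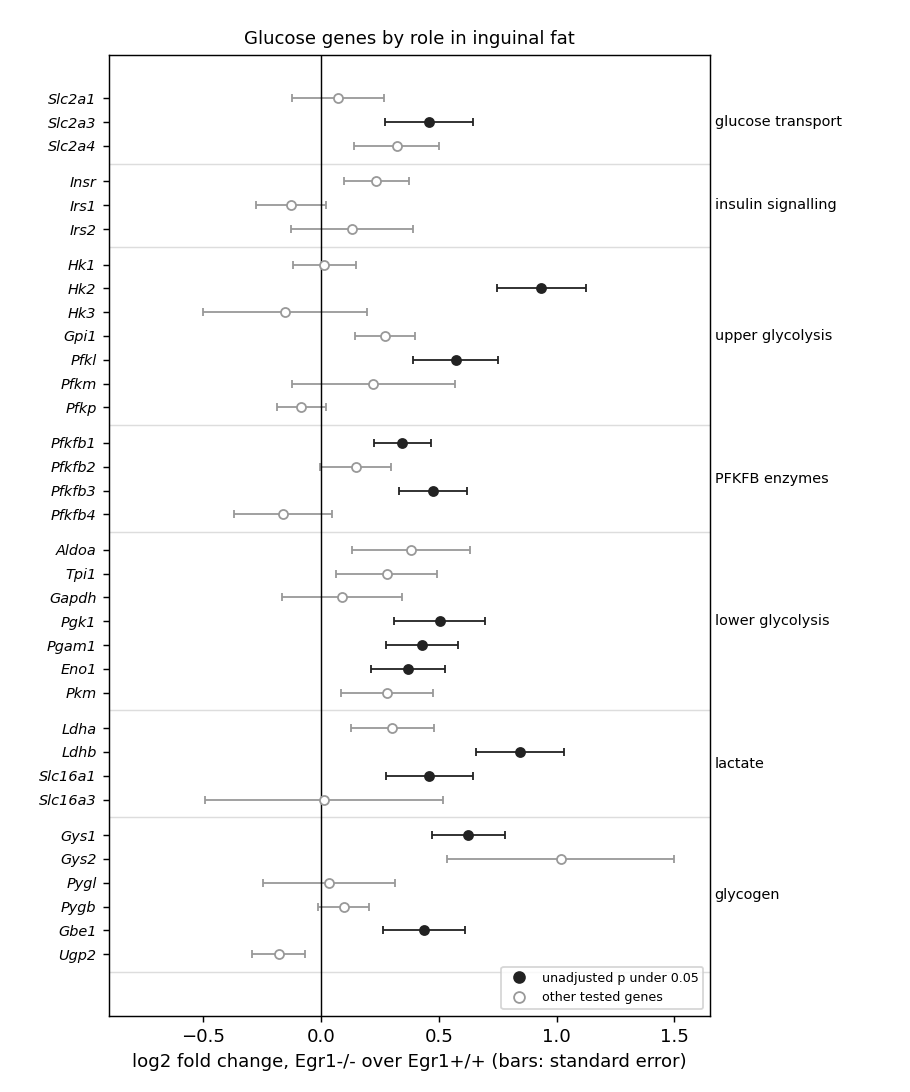
Log2 fold change of *Egr1*-/- over *Egr1*+/+ SC-WAT for the 34 glucose genes tested, grouped by role, with bars of 1 standard error from edgeR's fit. Filled points mark the 12 genes with an unadjusted p under 0.05, all of them to the right of 0, and *Hk2*, *Ldhb* and *Gys1* lie furthest right among these.

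The excess did not weigh equally on the mice. *Egr1*-/- replicate 3 had the highest level of the 6 mice in 20 of the 34 genes. Relative to the *Egr1*+/+ mean, the median over the 34 genes on the log2 scale was 0.28 in *Egr1*-/- replicate 1, 0.10 in replicate 2 and 0.61 in replicate 3. In *Egr1*+/+ replicates 1 to 3 it was 0.04, 0.02 and -0.07, so all *Egr1*-/- mice lay above all *Egr1*+/+ mice, and *Egr1*-/- replicate 2 by little. Without *Egr1*-/- replicate 3 the median of the log2 fold changes was 0.16, and 24 of 34 were positive, against 50.7% of all tested genes. In that fit 5 genes had an unadjusted p under 0.05, all higher, against 2.57% of all tested genes. They were *Gys1*, *Hk2*, *Ldhb*, *Pfkfb3* and *Slc2a3*. Without *Egr1*+/+ replicate 3 there were 6 such genes, against 3.14% of all tested genes. In the absence of *Egr1*-/- replicate 3 the log2 fold changes of *Slc2a1*, *Hk1*, *Pfkm*, *Gapdh* and *Slc16a3* turned negative, and none of these had an unadjusted p under 0.05 in either fit.

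Per kilobase of exon, *Aldoa* was the most abundant of the 35 genes at 75.8 CPM per kilobase over the 6 mice, followed by *Pgam1* at 41.6, *Ldha* at 39.4 and *Pkm* at 26.9. With the longest transcript as the length, the order below *Aldoa* (142) was *Ldha* at 71.8, *Pkm* at 55.4 and *Pgam1* at 46.5. At the lower end lay *Gys2* at 0.41, *Slc16a3* at 0.27 and *Aldoc*, the brain-type aldolase, at 0.073 CPM per kilobase. *Aldoc* had too few counts for a test, with at most 0.420 CPM in any mouse. *Gapdh*, an enzyme often used as a reference gene, ranked only 24th at 5.19 CPM per kilobase, and 27.2% of the 50-base windows of its transcript also occurred in other annotated genes. It had 81 near-identical copies, 77 of them pseudogenes, whose counts came to 33.5% of its own, so its count is uncertain.

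Of the glucose transporters, *Slc2a3* (GLUT3, a high-affinity transporter best known from neurons) was higher in every *Egr1*-/- mouse at a low level. It was at 5.04, 3.83 and 4.69 CPM in *Egr1*+/+ replicates 1 to 3 and at 5.61, 7.33 and 5.69 CPM in *Egr1*-/- replicates 1 to 3. The log2 fold change was 0.46 ± 0.19 (SE) with an adjusted p of 0.432 in edgeR. *Slc2a4*, which encodes GLUT4, was the main transporter, with 87.9% ± 2.15 (SD, n = 3) of the 3 transporters per kilobase in *Egr1*+/+ mice against 88.8% ± 2.51 (SD, n = 3) without *Egr1*. Its levels were 75.1, 52.1 and 63.5 CPM against 76.9, 64.9 and 96.3 CPM. The groups overlapped, as *Egr1*-/- replicate 2 lay below *Egr1*+/+ replicate 1, and the log2 fold change was 0.32 ± 0.18 (SE, adjusted p = 0.585 with edgeR). *Slc2a1*, the gene of GLUT1, lay between 5.69 and 8.17 CPM in the 6 mice, with overlapping groups.

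Of the insulin receptor and its substrates *Irs1* and *Irs2*, 0 of 3 genes had an unadjusted p under 0.05, against 5.06% (higher) and 5.6% (lower) of all tested genes. *Irs1*, the adaptor that carries the insulin signal to PI3-kinase in adipocytes, had the highest level per kilobase of exon of them, at 8.17 CPM, while *Insr* led with the longest transcript as the length, at 11.6 CPM per kilobase. *Irs1* was at 76.8, 65.0 and 92.1 CPM in *Egr1*+/+ mice against 73.2, 64.0 and 76.8 CPM, with a log2 fold change of -0.13 ± 0.15 (SE, adjusted p = 0.819 with edgeR). The groups overlapped almost entirely, and 30.9% of the exon bases of *Irs1* lie opposite exons of *Gm9747* on the other strand. The strand setting of the counting is not given in the sources used here, so reads of the pair may not be separated. *Insr* and *Irs2* had log2 fold changes of 0.23 and 0.13, with overlapping groups in both.

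Hexokinase phosphorylates glucose in the first step of glycolysis, and the largest log2 fold change of the 12 glucose genes with an unadjusted p under 0.05 was that of *Hk2*, its insulin-regulated form (chr6:82725025-82774454, minus strand, GRCm38). It was at 47.8, 42.9 and 41.7 CPM in *Egr1*+/+ replicates 1 to 3 and at 67.0, 73.9 and 112 CPM in *Egr1*-/- replicates 1 to 3. Every *Egr1*-/- mouse was above every *Egr1*+/+ mouse, with replicate 3 far above the other two. Expression was 1.91-fold higher (log2 fold change 0.94 ± 0.19 SE), with an unadjusted p of 0.000786 and an adjusted p of 0.165 in edgeR, and an adjusted p of 2.9e-04 in DESeq2. Without *Egr1*-/- replicate 3 the log2 fold change of *Hk2* was 0.68 (unadjusted p = 0.000815 in edgeR's fit across all genes).

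*Hk1*, the housekeeping form and second hexokinase of the tissue, overlapped between the groups, at 15.0 ± 1.56 CPM (SD, n = 3) in *Egr1*+/+ and 15.1 ± 1.63 CPM (SD, n = 3) in *Egr1*-/- mice. *Hk3*, a form known from myeloid cells, was scarce, at 1.78 ± 0.709 CPM (SD, n = 3) and 1.60 ± 0.237 CPM (SD, n = 3). Per kilobase, *Hk2* made up 78.5%, 75.3% and 76.4% of the 3 hexokinases in *Egr1*+/+ replicates 1 to 3 against 85.2%, 83.9% and 89.1% in *Egr1*-/- replicates 1 to 3. Its share was higher in every *Egr1*-/- mouse, on average 9.36 percentage points, and with 3 mice against 3 an exact two-sided permutation test cannot give a p below 0.1, the value it gave here. With the longest transcript in place of all exons as the length, the difference of the *Hk2* share was 12.3 percentage points.

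Glucose-6-phosphate isomerase and phosphofructokinase follow hexokinase. *Pfkl*, the liver-type subunit of the rate-limiting phosphofructokinase, was at 36.7, 30.0 and 30.5 CPM in *Egr1*+/+ and 48.1, 36.2 and 60.0 CPM in *Egr1*-/- mice. *Egr1*-/- replicate 2 fell just short of *Egr1*+/+ replicate 1, so the groups overlapped, and the log2 fold change was 0.57 ± 0.18 (SE, adjusted p = 0.305 with edgeR). The muscle-type subunit *Pfkm* ran from 19.1 to 33.7 CPM in *Egr1*+/+ and from 17.4 to 46.4 CPM in *Egr1*-/- mice. It was highest in the mouse of each group with the highest summed level of skeletal muscle markers. The platelet-type subunit *Pfkp* was at 34.1 ± 0.698 CPM (SD, n = 3) and 32.2 ± 2.25 CPM (SD, n = 3). *Gpi1*, the isomerase, had a log2 fold change of 0.27 ± 0.13 (SE, adjusted p = 0.493 with edgeR).

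The PFKFB enzymes make and break down fructose 2,6-bisphosphate, the strongest activator of phosphofructokinase. *Pfkfb3*, a form with high kinase activity, was the main one in SC-WAT, with 66.2% ± 2.43 (SD, n = 3) of the family per kilobase in *Egr1*+/+ mice. Its levels were 99.7, 93.9 and 84.0 CPM against 111, 122 and 152 CPM. All *Egr1*-/- mice were above all *Egr1*+/+ mice, and the log2 fold change was 0.47 ± 0.14 (SE, adjusted p = 0.291 with edgeR). *Pfkfb1*, first known from liver and muscle, behaved alike, with 19.8, 17.5 and 19.8 CPM against 23.5, 22.1 and 26.9 CPM and a log2 fold change of 0.34 ± 0.12 (SE, adjusted p = 0.345 with edgeR). The minor forms *Pfkfb2* and *Pfkfb4* had log2 fold changes of 0.15 and -0.16, and made up a smaller share of the family in every *Egr1*-/- mouse, at 3.80% against 4.53% and at 2.37% against 3.53% on average. The exact permutation test again gave 0.1 for both shares. For *Pfkfb2*, 17.4% of the exon bases overlap other genes on the same strand.

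**Figure D2:**
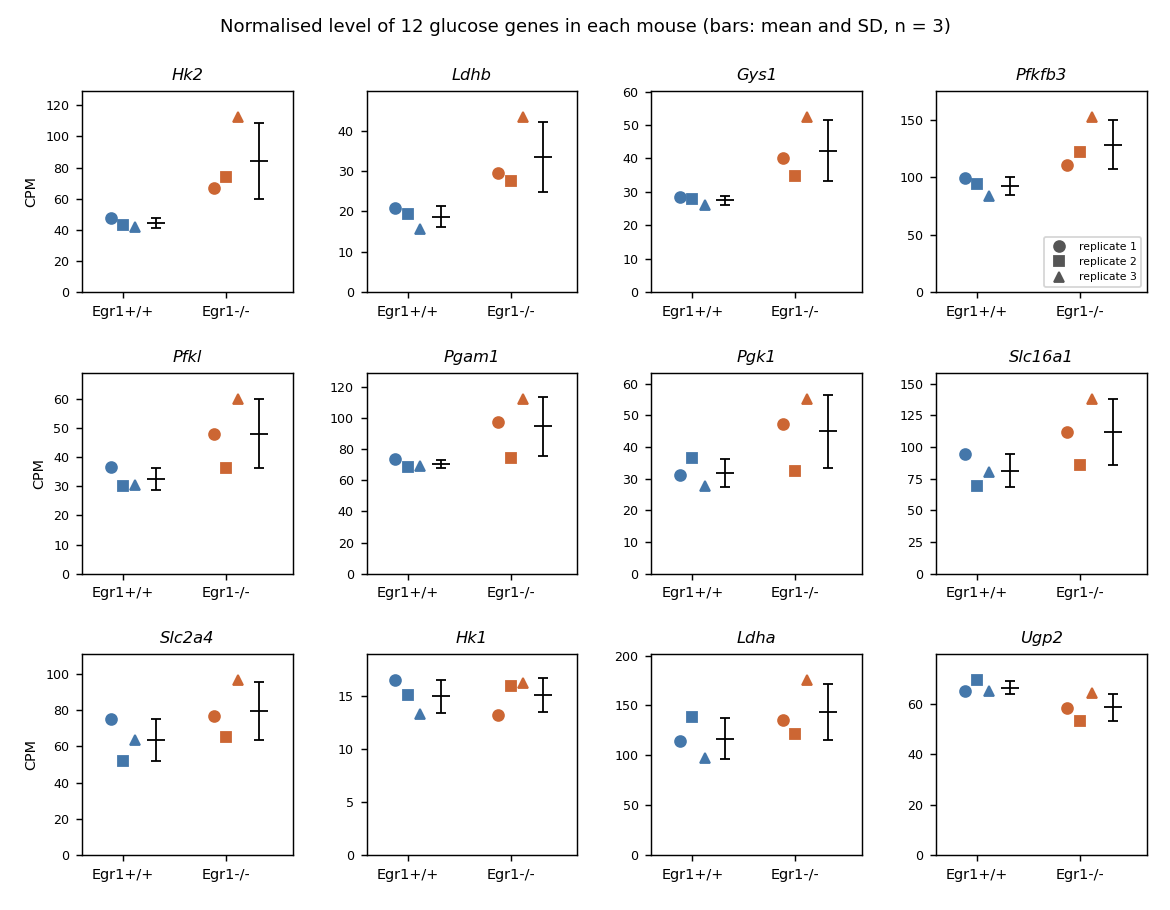
TMM-normalised CPM of 12 glucose genes in each mouse, *Egr1*+/+ in blue and *Egr1*-/- in orange, with a marker shape per replicate number, and the mean and SD of each group as a bar (n = 3). *Hk2*, *Ldhb*, *Gys1*, *Pfkfb3* and *Pgam1* were higher in every *Egr1*-/- mouse and *Ugp2* lower, while *Hk1* lay between 13.2 and 16.4 CPM in both groups.

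Below fructose 1,6-bisphosphate, the lower part of glycolysis splits the sugar and regains ATP, and all 7 enzymes tested there had a positive log2 fold change, with a median of 0.37. Without *Egr1*-/- replicate 3 that median was 0.18. *Pgam1*, the phosphoglycerate mutase of most tissues, was at 73.4, 68.5 and 69.2 CPM in *Egr1*+/+ and at 97.2, 74.4 and 112 CPM in *Egr1*-/- mice. The groups did not overlap, although *Egr1*-/- replicate 2 exceeded *Egr1*+/+ replicate 1 by only about 1 CPM, and the log2 fold change was 0.43 ± 0.15 (SE, adjusted p = 0.358 with edgeR). *Pgk1*, phosphoglycerate kinase, was at 31.1, 36.6 and 27.7 CPM against 47.4, 32.5 and 55.2 CPM (log2 fold change 0.50 ± 0.19 SE, adjusted p = 0.392 with edgeR). *Eno1*, the widespread enolase, was at 54.0, 42.9 and 41.1 CPM against 57.2, 50.8 and 70.1 CPM (log2 fold change 0.37 ± 0.16 SE, adjusted p = 0.448 with edgeR). In both, *Egr1*-/- replicate 2 fell inside the range of the *Egr1*+/+ mice. None of these 3 genes kept an unadjusted p under 0.05 without *Egr1*-/- replicate 3.

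*Aldoa*, the main aldolase, was at 174, 262 and 139.6 CPM in *Egr1*+/+ and at 243, 190.0 and 316 CPM in *Egr1*-/- mice. Its groups overlapped widely, with a log2 fold change of 0.38 ± 0.25 (SE, adjusted p = 0.652 with edgeR). *Tpi1*, *Gapdh* and *Pkm* had log2 fold changes from 0.09 to 0.28, with overlapping groups. In this part of glycolysis, copies elsewhere in the genome are common: 72.2% of the 50-base windows of *Eno1*, 68.0% of *Pgk1*, 41.5% of *Pgam1* and 34.4% of *Pkm* occur in other annotated genes. Their near-identical copies held at most 0.33% of their counts, and how the authors' counting treated reads that map to several places is not given in the sources used here.

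Of the lactate genes the lowest p was that of *Ldhb* (chr6:142490249-142507957, minus strand, GRCm38), the heart-type subunit of lactate dehydrogenase, found mostly in oxidative tissues. It was at 20.8, 19.3 and 15.8 CPM in *Egr1*+/+ replicates 1 to 3 and at 29.5, 27.5 and 43.4 CPM in *Egr1*-/- replicates 1 to 3. All *Egr1*-/- mice were above all *Egr1*+/+ mice, a 1.80-fold higher level on average (log2 fold change 0.84 ± 0.19 SE, adjusted p = 0.193 with edgeR and 0.00268 with DESeq2). *Ldha*, the muscle-type subunit, was at 114, 138 and 97.8 CPM against 135, 121 and 175 CPM, with overlapping groups and a log2 fold change of 0.30 ± 0.18 (SE, adjusted p = 0.600 with edgeR). Per kilobase, *Ldhb* therefore made up 27.8%, 22.8% and 25.3% of both subunits in *Egr1*+/+ mice against 31.5%, 32.3% and 34.3% without *Egr1*. The share was higher in every *Egr1*-/- mouse, by 7.41 percentage points on average (exact permutation p = 0.1), and that of *Ldha* was lower by as much.

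Lactate leaves and enters cells with a proton through monocarboxylate transporters. *Slc16a1*, which encodes MCT1, was at 94.8, 69.6 and 80.2 CPM in *Egr1*+/+ and at 112, 86.1 and 138 CPM in *Egr1*-/- mice. *Egr1*-/- replicate 2 lay inside the range of the *Egr1*+/+ mice, and the log2 fold change was 0.46 ± 0.19 (SE, adjusted p = 0.427 with edgeR). *Slc16a3*, the gene of the exporter MCT4, was scarce, at 0.810 to 2.56 CPM.

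**Figure D3:**
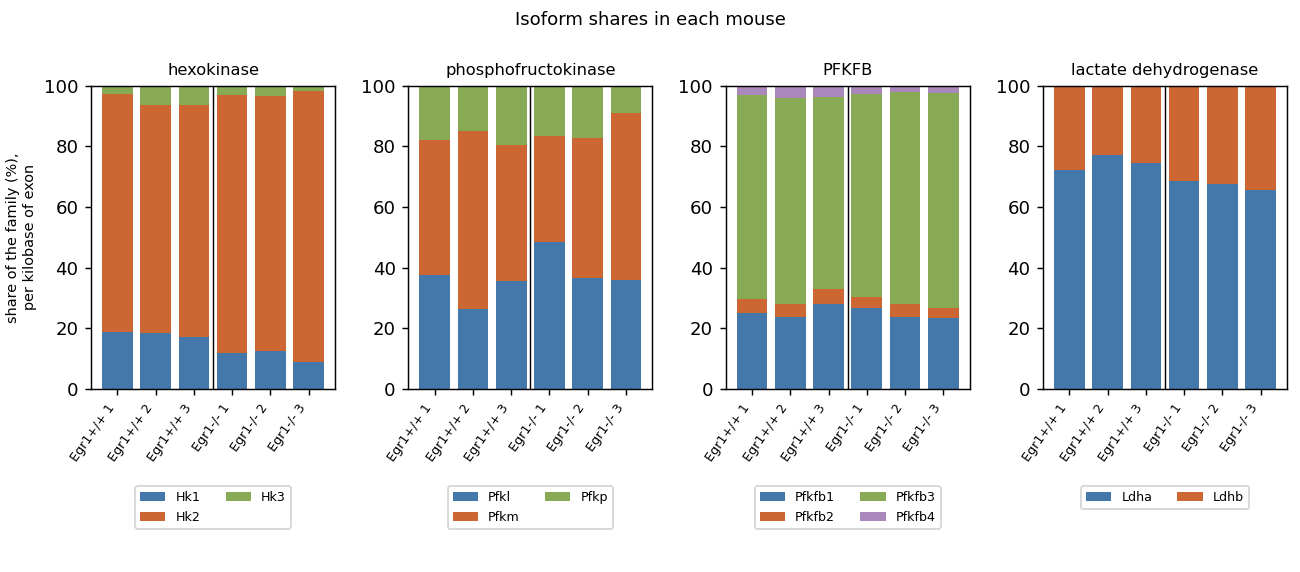
Share of each gene in its family per mouse, in percent of the summed CPM per kilobase of exon, for the hexokinases, the phosphofructokinase subunits, the PFKFB enzymes and the lactate dehydrogenase subunits, with a line between the 3 *Egr1*+/+ and the 3 *Egr1*-/- mice. The *Hk2* part was at least 83.9% and the *Ldhb* part at least 31.5% in each *Egr1*-/- mouse, against at most 78.5% and 27.8% in the *Egr1*+/+ mice, while the phosphofructokinase subunits overlapped.

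Over all 10 families of the glucose genes, 25 shares were compared, and 6 of them did not overlap between the groups. These were *Hk1* and *Hk2*, *Pfkfb2* and *Pfkfb4*, and *Ldha* and *Ldhb*, and shares of a family are not independent, since they add up to the whole. With 3 mice against 3, a single share lies without overlap with a probability of 0.1 if the genotype makes no difference. The count of 6 was not tested. Glucose transporters, *Irs* genes, phosphofructokinases, aldolases, monocarboxylate transporters, glycogen synthases and glycogen phosphorylases had overlapping shares. In each of these the same gene led in both groups on average: *Slc2a4*, *Irs1*, *Pfkm*, *Aldoa*, *Slc16a1*, *Gys1* and *Pygb*. With the longest transcript as the length, *Pfkl* led in place of *Pfkm*, at 41.3% against 40.0% of the phosphofructokinases in *Egr1*+/+ and 49.0% against 36.2% in *Egr1*-/- mice.

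Of the glycogen genes, *Gys1* (chr7:45434844-45456619, plus strand, GRCm38), the glycogen synthase of muscle and fat, was at 28.6, 27.8 and 26.0 CPM in *Egr1*+/+ replicates 1 to 3 and at 40.1, 34.7 and 52.3 CPM in *Egr1*-/- replicates 1 to 3. All *Egr1*-/- mice were above all *Egr1*+/+ mice, which lay within 3 CPM of each other. The level was 1.54-fold higher (log2 fold change 0.63 ± 0.15 SE, adjusted p = 0.224 with edgeR and 0.0189 with DESeq2), and 6.47% of the exon bases of *Gys1* lie opposite *Ruvbl2*. *Gbe1*, the branching enzyme, was at 54.7, 39.2 and 43.0 CPM against 57.5, 52.1 and 75.6 CPM, with *Egr1*-/- replicate 2 inside the *Egr1*+/+ range (log2 fold change 0.44 ± 0.17 SE, adjusted p = 0.418 with edgeR).

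*Ugp2*, which makes the UDP-glucose that glycogen synthase uses, went the other way. It was at 64.9, 69.2 and 64.9 CPM in *Egr1*+/+ and at 58.2, 53.4 and 64.3 CPM in *Egr1*-/- mice. All *Egr1*-/- mice were below all *Egr1*+/+ mice, replicate 3 by less than 1 CPM, and the log2 fold change of -0.18 ± 0.11 (SE) had an adjusted p of 0.631 in edgeR. The liver-type synthase *Gys2* had the largest log2 fold change of the 34 genes, 1.02 ± 0.48 (SE, adjusted p = 0.494 with edgeR), at a level of at most 1.86 CPM and with overlapping groups. The phosphorylases that break glycogen down, *Pygl* and *Pygb*, had log2 fold changes of 0.03 and 0.10.

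As EGR1 binds DNA at a GC-rich 9-base sequence, the promoters of the glucose genes were searched for its core letters GCGNGGGCG on both strands. RefSeq promoter windows of GRCm38.p6 were used, of 300 bases around the start of transcription, and 31 of the 35 genes had 1 or more, 49 in all. The letters occurred in 1824 of 32851 windows of all genes (5.55%) and in 4 of the 49 windows of glucose genes, in *Gys1*, *Eno1*, *Pfkp* and *Pfkfb2*. *Insr*, *Slc2a3*, *Slc2a4* and *Gys2* were not matched. Shown are 100 bases before the start from the promoters of these 4 genes and of *Hk2* and *Ldhb*, the genes with the lowest p, written 5′ to 3′ on the strand of the gene, with matches on either strand in capitals. For *Gys1* the stretch begins 168 bases before the start, since its match lies 148 bases before it on the opposite strand.
Hk2, chr6:82774455-82774554, minus strand: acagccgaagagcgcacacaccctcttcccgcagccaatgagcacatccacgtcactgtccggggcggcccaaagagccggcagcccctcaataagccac
Ldhb, chr6:142507958-142508057, minus strand: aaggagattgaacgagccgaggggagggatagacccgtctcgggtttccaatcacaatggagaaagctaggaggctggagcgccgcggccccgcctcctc
Gys1, chr7:45434671-45434770, plus strand: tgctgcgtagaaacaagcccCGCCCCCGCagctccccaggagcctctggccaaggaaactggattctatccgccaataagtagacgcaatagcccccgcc
Eno1, chr4:150236608-150236707, plus strand: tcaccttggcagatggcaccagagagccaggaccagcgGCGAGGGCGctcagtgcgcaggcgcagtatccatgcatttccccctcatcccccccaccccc
Pfkp, chr13:6648772-6648871, minus strand: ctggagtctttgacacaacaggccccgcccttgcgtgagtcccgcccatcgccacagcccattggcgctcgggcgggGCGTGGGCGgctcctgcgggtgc
Pfkfb2, chr1:130715822-130715921, minus strand: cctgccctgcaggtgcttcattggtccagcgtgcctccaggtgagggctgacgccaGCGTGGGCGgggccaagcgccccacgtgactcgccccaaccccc

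The matches in *Eno1*, *Pfkfb2* and *Pfkp* begin 62, 44 and 23 bases before the start. Of the 4 genes with the letters, *Gys1* and *Eno1* had positive log2 fold changes with an unadjusted p under 0.05, *Pfkfb2* one of 0.15 and *Pfkp* one of -0.08. The windows of *Hk2* and *Ldhb* held no match, which says only that these letters are not in them. The E-box CACGTG, the core of the sequence that carbohydrate-responsive factors bind, was in 7.15% of all windows and in 7 of the 49, in *Irs1*, *Irs2*, *Ldha*, *Pfkfb2*, *Pfkfb3*, *Pfkm* and *Slc16a1*. A match of letters is a description and does not show binding.

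Genes of glucose metabolism outside the 35 were counted from 9 lists of 85 genes. Of these, 73 were tested, 0 passed the adjusted threshold in edgeR, and the median log2 fold change was 0.07. An unadjusted p under 0.05 was reached by 6 (8.22%) in the higher and 3 (4.11%) in the lower direction, against 5.06% and 5.6% of all tested genes. Without *Egr1*-/- replicate 3 there were 2 in the higher and 4 in the lower direction, against 2.57% and 3.80% of all tested genes. The lowest p was that of *Mlxipl*, the gene of the glucose-sensing transcription factor ChREBP. It was at 17.6, 12.1 and 19.7 CPM in *Egr1*+/+ and at 26.8, 29.0 and 32.1 CPM in *Egr1*-/- mice, without overlap (log2 fold change 0.83 ± 0.18 SE, adjusted p = 0.176 with edgeR and 0.003 with DESeq2). A further list of insulin signalling held *Irs3* and genes beyond the receptor substrates. Of its 18 genes, 4 (22.2%) lay higher without overlap and 1 (5.56%) lower, against 8.15% and 8.1% of all tested genes. An unadjusted p under 0.05 was reached by 0 in the higher direction and by 2 in the lower, or 1 without *Egr1*-/- replicate 3. The lower p of them was that of *Grb10*, an adaptor that dampens insulin receptor signalling, at 97.3, 102 and 91.0 CPM against 80.7, 60.1 and 67.1 CPM. All *Egr1*-/- mice were below all *Egr1*+/+ mice (log2 fold change -0.48 ± 0.13 SE, adjusted p = 0.256 with edgeR and 0.0499 with DESeq2).

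In the pentose phosphate pathway, 2 of 7 genes had an unadjusted p under 0.05, both in the higher direction, where 5.06% of all tested genes did, and 0 of 7 without *Egr1*-/- replicate 3. The lower p was that of *Tkt*, the transketolase, with a log2 fold change of 0.53 ± 0.17 (SE, adjusted p = 0.319 with edgeR). Among the other hexose transporters, *Slc2a13*, a proton-coupled inositol transporter, had the lowest p, with a log2 fold change of -0.46 ± 0.19 (SE, adjusted p = 0.419 with edgeR). *Tigar*, which removes fructose 2,6-bisphosphate, led the other isoenzymes and regulators of glycolysis at 0.44 ± 0.18 (SE, adjusted p = 0.445 with edgeR). The remaining lists were led by *Phka2*, a subunit of phosphorylase kinase, at a log2 fold change of 0.28, *Ppp1r3c*, a glycogen targeting subunit of a phosphatase, at 0.42 (0.07 without *Egr1*-/- replicate 3), *G6pc3*, a glucose-6-phosphatase, at 0.22, and *Slc16a7*, a monocarboxylate transporter, at 0.15, of which only *Phka2* had an unadjusted p under 0.05.

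Fat pads hold several cell types, and in bulk tissue fewer cells of a type and less RNA per cell cannot be told apart. Adipocyte markers, the defining genes of the labelled tissue, summed to 6221 to 6680 CPM in *Egr1*+/+ and to 5002 to 6042 CPM in *Egr1*-/- mice. At an unadjusted p under 0.05, 3 of 8 were lower and 1 higher, against 5.6% and 5.06% of all tested genes. Without *Egr1*-/- replicate 3, 2 were lower and 0 higher, against 3.80% and 2.57%. Markers of beige and brown adipocytes summed to 668, 536 and 521 CPM in *Egr1*+/+ and to 1302, 920 and 1539 CPM in *Egr1*-/- mice. Of the tested markers, 6 of 6 were higher at an unadjusted p under 0.05, against 5.06% of all tested genes. *Elovl3* was too low for a test. The paper reported *Ucp1*, *Cidea*, *Dio2*, *Cox8b* and *Ppargc1a* as upregulated in these same mice, so their calls here give no independent support. The order of the *Egr1*-/- mice by the beige and brown sums, replicate 3 above 1 above 2, was also their order by the median of the glucose genes. By the skeletal muscle sums, given next, their order was replicate 3 above 2 above 1. Orders of 3 mice were not tested and can match by accident. Skeletal muscle markers summed to 1197, 3689 and 227 CPM in *Egr1*+/+ and to 112, 391 and 2950 CPM in *Egr1*-/- mice, a 33.0-fold range that did not follow the genotype, with 0 of 12 at an unadjusted p under 0.05. Without *Egr1*-/- replicate 3, 8 of the 12 were lower in *Egr1*-/- mice at that p, against 3.8% of all tested genes. Among the *Egr1*+/+ mice the muscle markers did not rank alike. *Myh1*, *Myh2* and *Mb* were highest in replicate 1, with *Myh1* at 134 CPM against 26.9 CPM in replicate 2, and the other muscle markers were highest in replicate 2. *Egr1*-/- replicate 3, the highest mouse for most glucose genes, was thus also rich in both lists.

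**Figure D4:**
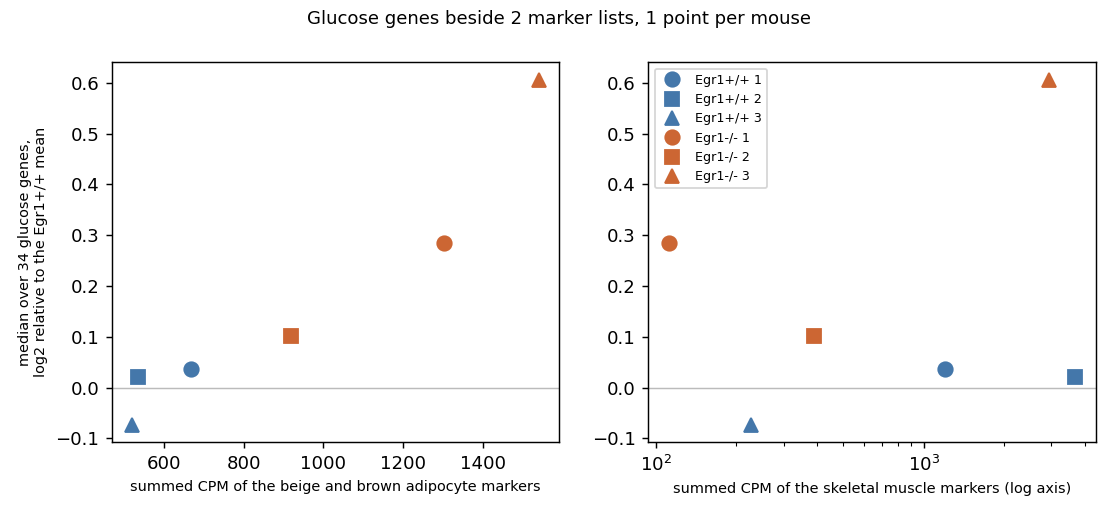
Median over the 34 glucose genes tested, as log2 of the level relative to the *Egr1*+/+ mean, against the summed CPM of the beige and brown adipocyte markers (left, linear axis) and of the skeletal muscle markers (right, log axis), with 1 point per mouse. *Egr1*-/- replicate 3 is highest on the vertical axis at 0.61, highest for the beige markers at 1539 CPM, and second for the muscle markers at 2950 CPM.

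Genes particular to muscle glycolysis moved with the muscle markers. *Pygm*, the muscle glycogen phosphorylase, was at 23.0, 85.4 and 6.52 CPM in *Egr1*+/+ and 5.34, 11.5 and 61.5 CPM in *Egr1*-/- mice, and *Eno3*, the muscle enolase, at 21.6, 76.6 and 8.56 CPM against 6.09, 15.6 and 58.5 CPM. Among the 35 glucose genes, 11 were highest in *Egr1*+/+ replicate 2 and *Egr1*-/- replicate 3 within their groups: *Pfkm*, *Pfkfb4*, *Aldoa*, *Aldoc*, *Tpi1*, *Gapdh*, *Pgk1*, *Pkm*, *Ldha*, *Slc16a3* and *Ugp2*. Of these only *Pgk1* was among the 12 with an unadjusted p under 0.05. The share of all tested genes with this order was not counted, so the 11 may be no excess, and *Aldoc* and *Slc16a3* had few counts. With the muscle marker level as a covariate, 14 glucose genes had an unadjusted p under 0.05, all higher, against 4.44% of all tested genes. The median log2 fold change of the glucose genes was 0.33 in that fit, which rests on 6 mice. In that fit *Hk2* had a log2 fold change of 0.97 and *Ldhb* one of 0.90.

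Macrophage markers summed to 335 to 476 CPM in *Egr1*+/+ and 263 to 315 CPM in *Egr1*-/- mice, with 5 of 7 lower at an unadjusted p under 0.05, or 3 without *Egr1*-/- replicate 3. Stromal progenitor markers summed to 419 to 438 CPM and 253 to 355 CPM, with 5 of 6 lower, or 4 without that mouse. Erythroid markers summed to 176 to 266 CPM and 86.8 to 167 CPM, with 3 of 6 lower with and without it. Of all tested genes, 5.6% were lower at that p, and 3.80% without *Egr1*-/- replicate 3. Lymphocyte, endothelial and mammary epithelial sums overlapped. At an unadjusted p under 0.05, 1 of 6 lymphocyte markers (*Cd79a*) was higher and 1 of 6 endothelial markers (*Tek*) lower. Neutrophil markers were scarce and did not overlap, with sums of 2.53 to 3.09 CPM in *Egr1*+/+ and 3.24 to 5.30 CPM in *Egr1*-/- mice. Of the 3 neutrophil markers tested, 0 had an unadjusted p under 0.05. No marker was at 0 in all mice. The part of beige adipocytes, skeletal muscle, macrophages, stromal and blood cells in the differences of the glucose genes was not tested.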

How the data were processed

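Raw read counts per gene were deposited by the authors for each mouse. Per the labels, total RNA was depleted of ribosomal RNA and sequenced strand-specifically, and the processing notes name TopHat2, Bowtie2, featureCounts and DESeq2 with GRCm38.p4. Strand and multimapping settings are not given in the sources used here, and read length and layout differ between the labels and the methods. Genes were named by Ensembl identifier, without version, through GENCODE M21, which matched 46574 of 47069 genes.

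Counts of all genes were fitted with edgeR 4.0.16 in R 4.3.3 (TMM, filterByExpr, quasi-likelihood test, Benjamini-Hochberg adjustment over all 17667 tested genes, threshold 0.05), without a covariate. Depth was 29661984 to 42357981 counts per mouse. DESeq2 1.42.0 and limma 3.58.1 served as alternatives, with other normalizations and filters, a replicate block, a muscle covariate and each mouse left out. The code was tested on simulated counts. Exon lengths per gene gave levels per kilobase. Copies had at least 95% identity over 200 bases by blastn 2.17.0. The members, lists and tests were chosen with earlier results of these data known. Values per mouse are given for genes with an unadjusted p under 0.05 or without overlap and for the most abundant gene of each role. The other genes are given by range and count, and each further list by its lowest p. *Hk1*, *Pfkm*, *Gapdh*, *Gys2*, *Pygm*, *Eno3* and the remaining minor genes were named after their values were seen.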

Additional observations from a re-analysis of the deposited data

How the results depend on the processing

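The number of calls depended on the tool and the settings. Across all genes, 3 passed in the reported fit, 342 with DESeq2, 1 with limma-voom, 0 with upper-quartile normalization, 79 with total-count normalization, 552 without a filter on low counts, 0 with 10 counts in every mouse, 6 with the muscle covariate, and 0 to 59 with a mouse left out. Of the glucose genes, 0 passed in the reported fit, 3 with DESeq2 and 5 without a filter (*Gys1*, *Hk2*, *Ldhb*, *Pfkl* and *Pgk1*), where 0.635% of all genes were called higher. In the fit without a filter the estimate of the prior degrees of freedom was infinite, against 5.07. Glucose genes with an unadjusted p under 0.05 numbered 12, 3 with total-count normalization, and 5 to 15 with a mouse left out, the lowest without *Egr1*-/- replicate 3 and then 6 without *Egr1*+/+ replicate 3. Over the fits with a mouse left out, 2.57% to 5.7% of all tested genes were higher at that p. Total counts moved the median of all genes by -0.15, and *Egr1*-/- replicate 1 had the lowest TMM factor, 0.79. There the glucose genes had a median of 0.16, and 29.5% of all tested genes had a positive log2 fold change. Without overlap, 4 glucose genes lay above and 0 below under total counts, against 7 and 1 in the reported fit. The share of all tested genes without overlap was not counted under that scaling, so the 4 and 0 have no background beside them. The median of the glucose genes ran from 0.16 to 0.38 over all alternatives, and that of lower glycolysis from 0.18 to 0.52. The 17 single genes followed were chosen in these data for an unadjusted p under 0.05, no overlap or the highest level. Of their 289 settings, 288 kept the direction, but the settings refit the same mice and give no independent support. *Irs1* ran from -0.24 to 0.0063 with a mouse left out, positive without *Egr1*+/+ replicate 3. Of the other tested glucose genes, *Slc2a1*, *Irs2*, *Hk1*, *Hk3*, *Pfkm*, *Gapdh*, *Slc16a3* and *Pygl* had either sign, depending on the mouse left out. The *Hk2* share differed by 12.3 percentage points with the longest transcript, against 9.36. Adding the counts of near-identical copies, an alternative chosen after seeing the data, gave 13 genes with an unadjusted p under 0.05. In that fit 5.07% of all tested genes were higher at that p.

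Same-numbered mice did not deviate together, with correlations of -0.0888, 0.106 and -0.126 over 17667 genes. With the replicate block, 0 genes passed and the median of the glucose genes was 0.26. There 9 glucose genes had an unadjusted p under 0.05, all higher, against 4.91% of all tested genes.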

Other observations

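*Gpi1* has a near-identical pseudogene copy whose counts were 3, 2 and 5 in *Egr1*+/+ replicates 1 to 3 and 4, 53 and 75 in *Egr1*-/- replicates 1 to 3. The copy was high in *Egr1*-/- replicates 2 and 3 and not in replicate 1. *Gpi1* itself was at 61.7, 58.7 and 58.8 CPM in *Egr1*+/+ and 73.4, 61.2 and 81.7 CPM in *Egr1*-/- mice, and the copy held 1.07% of its counts over all mice.

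*Mlxip*, which encodes a relative of ChREBP, was also higher in every *Egr1*-/- mouse, at 37.6, 45.7 and 45.2 CPM against 28.3, 35.8 and 32.2 CPM (log2 fold change 0.42 ± 0.13 SE, adjusted p = 0.303 with edgeR). It was named after its value was seen, as was *Pgam2*, the muscle phosphoglycerate mutase, which was at 7.71, 21.2 and 1.02 CPM in *Egr1*+/+ and 0.540, 2.81 and 16.3 CPM in *Egr1*-/- mice.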
